A study of Mus musculus with 2 samples.

Results

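Mitochondrial ribosomal proteins were examined in a lentiviral siRNA screen of mouse neural stem cells. Members were the genes whose symbol begins with Mrpl or Mrps and a number, together with the GTPases Mtg1 and Mtg2, where a probe set was annotated with that symbol alone. They made up 78 of 18193 genes and were read by 161 of 45037 probe sets, with 47 named for the large subunit of the ribosome, 29 for the small subunit and 2 GTPases. The mouse assembly lists 80 protein-coding genes of these names, and the other 2, Mrpl30 and Mrpl53, were read only by probe sets with several gene symbols.

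The reference control was a culture of ANSO4E cells, an adult neural stem cell line from a transgenic mouse made with C57BL/6JxSJL/JF1 oocytes and BDF1 sperm, that carried the siRNA library and received no MNNG. The MNNG survivors carried the same library and came through 500 µM MNNG, an alkylating agent that methylates DNA, given for 15 min and repeated after regrowth. Both were grown with EGF and basic FGF, and each was read on 1 Affymetrix mouse genome array, so no difference below has a replicate check or a p-value. The library was given at a low ratio of virus to cells, intended to give each infected cell a single insert, and the survivors were grown up from the cells that lived through both treatments.

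Mitochondrial ribosomes translate the small set of proteins that mitochondrial DNA encodes, all of them parts of the respiratory chain and the ATP synthase. Their RNAs come from mitochondrial DNA, whereas every protein of the ribosome is encoded in the nucleus and imported. Some of these proteins have counterparts in bacterial ribosomes and others are found only in mitochondria. Mtg1 and Mtg2 are GTPases that help to assemble the large subunit.

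A signal in this screen stands for the abundance of library inserts that match a gene, not for the expression of that gene, and the labeled cell type could therefore not be checked against marker transcripts. Values are log2 signals per probe set (a group of short probes against 1 transcript), and differences are survivors minus reference control. The study describes a library with several different siRNA sequences per target transcript, so the probe sets of a gene may read different inserts. Which inserts each probe set reads was not tested. For each gene the probe set with the highest mean over the arrays is given first and called its brightest. The median log2 signal of all probe sets was 0.69 on the control array and 0.74 on that of the survivors, and the 99th percentiles were 4.11 and 2.68. All 18 hybridization controls, bacterial and phage sequences spiked into the samples, were higher on the survivors' array. Directions below hold for the deposited scale. With the arrays aligned on these spikes, the difference of every gene dropped by 2.77, and the median of all genes was then -2.77. All 78 members were then lower in the survivors by over 1. The share of all genes lower by as much is not given, so this count does not set the members apart.

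Inserts against mitochondrial ribosomal proteins were mostly faint on both arrays, and as a set they lay near the middle of all genes. The 78 members had a median log2 signal of 0.88 on the control array and 0.90 on that of the survivors, beside 0.85 and 0.90 for all genes. In the survivors 34 members were higher, 29 were lower and 15 had the same value (within 1e-05), with a median log2 difference of 0.00. Of all genes, 43.5% were higher, 38.1% were lower and 18.4% were equal, also with a median of 0.00. Members higher in the survivors by over 1 on the log2 scale numbered 6 of 78 (7.69%), where 4.78% of all genes were. Those lower by over 1 numbered 5 of 78 (6.41%), where 5.45% of all genes were. Counted by probe set, 8 of 161 (4.97%) were higher by over 1 and 9 (5.59%) lower, beside 3.7% and 4.14% of all probe sets with 1 symbol. Neither count sets the members apart from all genes. No probe set of a member reached a signal of 1000 on either array, and the highest, for Mrpl42 in the reference control, was 28.8 on the linear scale. The deposited values carry no detection calls, and whether signals this low stand above the background of the arrays was not tested, which applies to each difference between low values below.

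**Figure D1:**
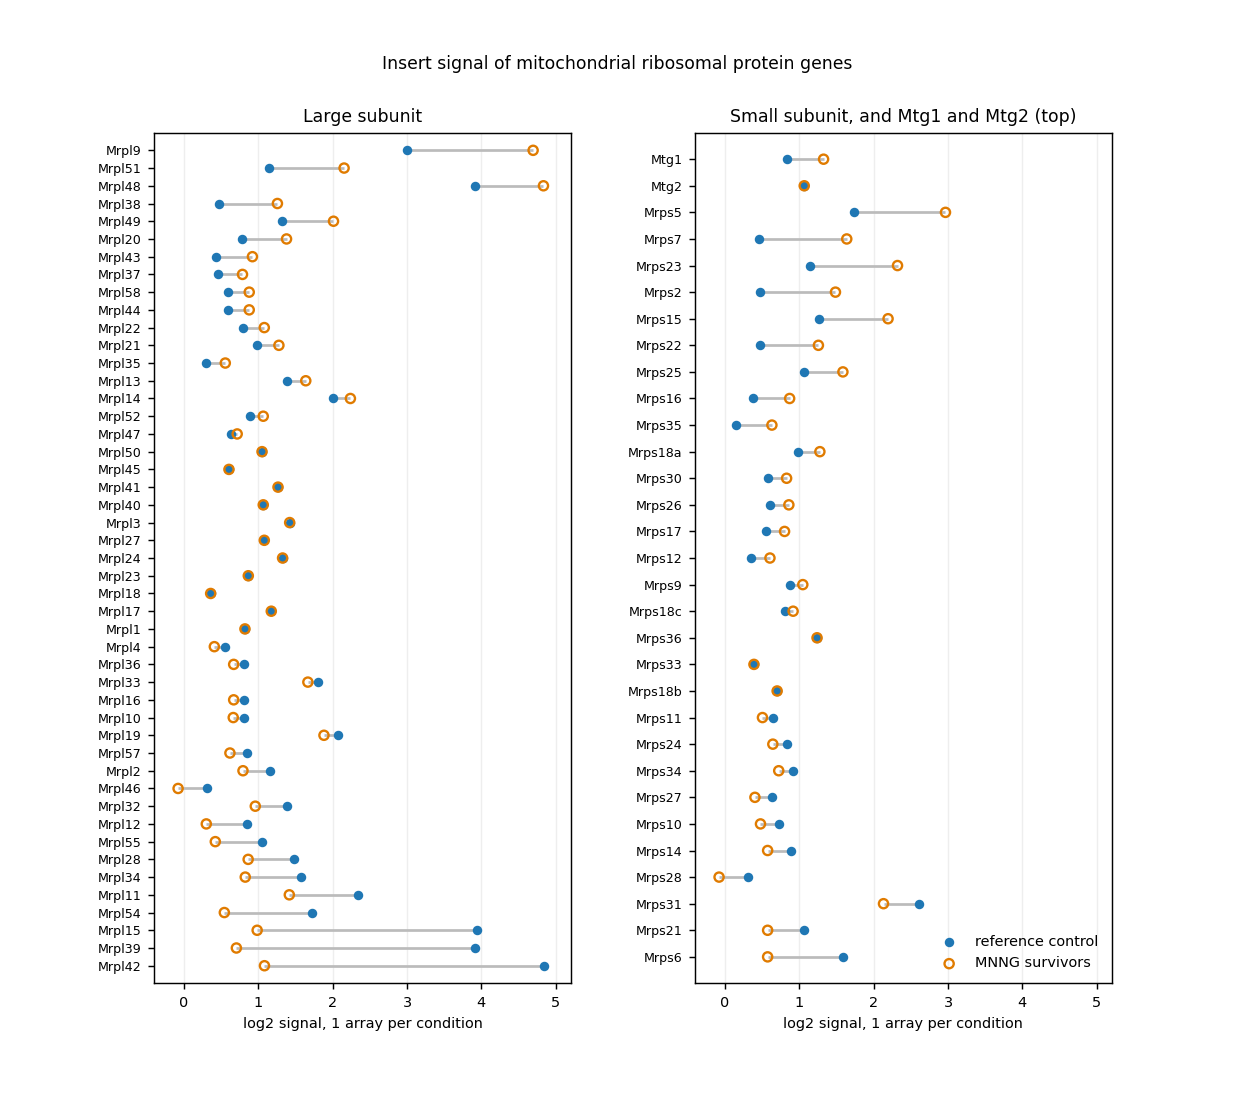
Log2 signal (horizontal axis) of each member at its probe set of highest mean signal, in the reference control (filled blue) and the MNNG survivors (open orange), 1 array each, ordered by the difference on the deposited scale. Mrpl42, Mrpl39 and Mrpl15 lie above 3.9 in the control and near or below 1.1 in the survivors, Mrpl48 and Mrpl9 are the brightest members in the survivors, and most other pairs of points lie close together at low signal.

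Signal levels of different probe sets also depend on their probes, so the following describes which values stood high and compares no genes or subunits. A log2 signal of 3 on either array was exceeded by 5 of 78 members (6.41%), beside 3.58% of all genes, and the 5 were Mrpl42, Mrpl39, Mrpl15, Mrpl48 and Mrpl9. The first 3 exceeded it in the reference control alone, Mrpl9 in the survivors alone and Mrpl48 on both arrays. In the survivors Mrps5 followed at 2.97.

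Mrpl42, Mrpl39 and Mrpl15 were the members furthest below the reference control. Mrpl42, a large subunit protein with no bacterial counterpart, read a log2 signal of 4.85 on the control array and 1.08 on that of the survivors, a difference of -3.77. Mrpl39, another mitochondria-specific protein, which resembles part of a threonyl-tRNA synthetase, had 3.92 and 0.70, a difference of -3.21. Mrpl15, the counterpart of bacterial L15, had 3.94 and 0.98, a difference of -2.96. Only these 3 members were lower by over 2.5, which is 3.85% of the 78, beside 1.73% of all genes, and 0 were higher by as much, beside 0.253% of all genes. Both counts hold for the deposited scale. Mrpl9 was higher by 3.35 after quantile normalization and by 3.18 after loess, and the difference of Mrpl15 was -2.33 after quantile normalization. In the reference control each of the 3 lay above 98% of all genes. In the survivors Mrpl42 lay above 67.5% of genes, Mrpl15 above 57.0% and Mrpl39 above 33.6%.

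The other probe sets of these genes gave smaller or opposite differences. The other probe set of Mrpl42 had 0.18 on the control array and 0.77 on that of the survivors, a difference of 0.59 in the opposite direction. The other probe set of Mrpl39 had 1.499 and 1.02, a difference of -0.48. Mrpl15 had 8 probe sets, the most of any member, with differences from -2.96 to 0.52. Of these, 5 were lower, 2 were equal and 1 was higher in the survivors, and 2 besides the brightest were lower by over 1, with 1.62 and 0.02 at one and 1.93 and 0.92 at the other. Mrpl15 was the only member past a difference of 1 at its brightest probe set that had another probe set past it in the same direction. The probe set with 1.93 and 0.92 is marked by its name as possibly cross-reacting (_x_at). Over all 8 probe sets of Mrpl15 the median difference was -0.48.

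Mrpl9 and Mrpl48 had the highest signals of the members in the survivors and were lower in the reference control. Mrpl9, the counterpart of bacterial L9, had 2.999 on the control array and 4.70 on that of the survivors, a difference of 1.70, the highest of all members, with the larger values under other scalings given above. Its 2 other probe sets had differences of 0.18 and 0.49 and signals of 1.17 and below. Mrpl48, a protein of the central protuberance, the crest of the large subunit, had 3.91 and 4.84, a difference of 0.92. Its 2 other probe sets gave 0.25 and, from 2.06 and 1.38, -0.68. Mrpl14, the counterpart of bacterial L14, was the next of the large subunit in the survivors with 2.24, against 2.01 in the control, at its only probe set. The bright probe set of Mrpl9 is marked as shared among transcripts by the array's name for it (ending in _s_at), and that of Mrpl48 as possibly cross-reacting (_x_at).

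Among the remaining members of the large subunit only Mrpl51 and Mrpl54 differed by over 1 at their brightest probe set. Mrpl51, a mitochondria-specific protein, had 1.14 and 2.15, a difference of 1.01, with -0.14 and 0.91 at its other probe sets. Mrpl54, also mitochondria-specific, had 1.72 and 0.54, a difference of -1.18, whereas its other probe set was equal at 0.57. Mrpl11, Mrpl13 and Mrpl38 passed a difference of 1 only at another probe set. For Mrpl11, the counterpart of the bacterial stalk protein L11, the brightest probe set had 2.34 and 1.42, a difference of -0.92, whereas another had 0.62 and 2.03, a difference of 1.41. For Mrpl13, the counterpart of bacterial L13, the brightest had 1.38 and 1.64, a difference of 0.25, whereas 3 others ran from -1.37 to -0.62. For Mrpl38, a protein of the central protuberance, all 3 probe sets were higher in the survivors, by 0.68, 0.78 and 1.01.

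Over its 47 members the large subunit had 17 higher, 19 lower and 11 equal, with a median log2 difference of 0.00 and a middle range from -0.30 to 0.27 (25th to 75th percentile). The median log2 signal of the subunit was 1.05 on the control array and 0.96 on that of the survivors. The 29 members of the small subunit had 16 higher, 10 lower and 3 equal, with a median difference of 0.18 and a middle range from -0.19 to 0.49. Their median signals were 0.73 and 0.83. These 29 were sorted by name and include Mrps18a and Mrps30, both higher in the survivors, which sit in the large subunit. Whether the subunits differ could not be tested with 1 array per condition.

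**Figure D2:**
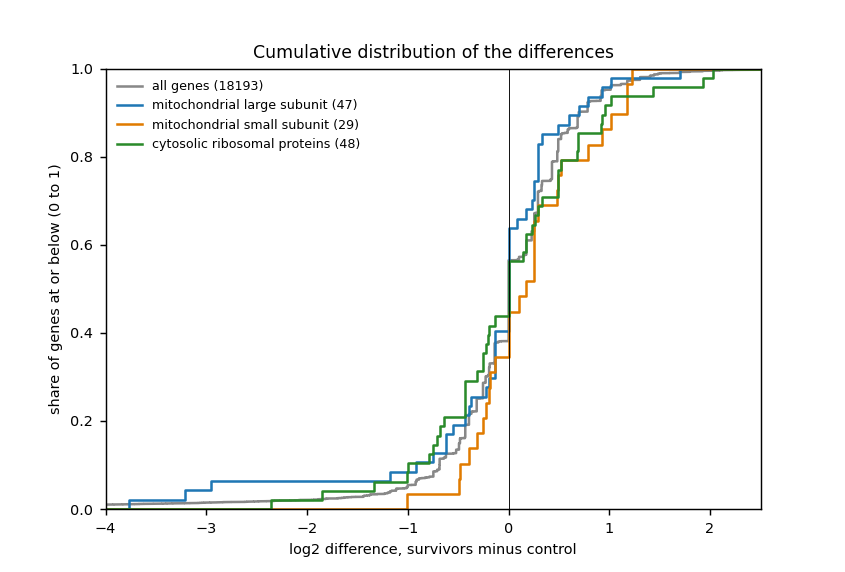
Share of genes (vertical axis, 0 to 1) with a log2 difference, survivors minus reference control on the deposited scale, at or below the value on the horizontal axis, which is cut at -4 and 2.5. The lines of the large subunit (blue, 47 genes), small subunit (orange, 29) and cytosolic ribosomal proteins (green, 48) run near that of all genes (grey, 18193), with a jump at 0 where values are equal on both arrays; the small subunit lies slightly to the right around its median of 0.18, and the large subunit has 3 genes below -2.5.

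Of the small subunit, 4 of 29 members (13.8%) were higher in the survivors by over 1 and 1 (3.45%) was lower by as much, beside 4.78% and 5.45% of all genes. Mrps5, the counterpart of a bacterial protein at the messenger RNA channel, had 1.74 on the control array and 2.97 on that of the survivors. The difference was 1.23 (2.22 after quantile normalization). That probe set is marked as possibly cross-reacting (_x_at), and without _x_at and _s_at probe sets the difference of Mrps5 was -0.23. Mrps7, a protein of the head of the subunit, had 0.46 and 1.64, a difference of 1.18, at its only probe set. Mrps23, a mitochondria-specific protein, had 1.14 and 2.32, also a difference of 1.18. Mrps2, the counterpart of bacterial S2, had 0.47 and 1.49, a difference of 1.02. In the opposite direction Mrps6, the counterpart of bacterial S6, had 1.59 and 0.57, a difference of -1.01.

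Where these genes had other probe sets, those lay within a difference of 1. Mrps5 had 5 probe sets with differences from -0.23 to 1.23, of which 3 were higher, 1 equal and 1 lower. Mrps23 had 0.59 and -0.14 at its other probe sets, Mrps2 had equal values and Mrps6 had 0.43. Mrps15, the counterpart of bacterial S15, was just short of the threshold with 1.27 and 2.19, a difference of 0.92, and ran down to -0.69 at another probe set. Mrps31, a protein of the head, was the brightest of the small subunit in the reference control, with 2.61 there and 2.13 in the survivors.

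Mrpl17 and Mtg1 are among the genes that the study selected from this screen. The study asked for signals above 1000 and log2 ratios above 2.5, and it lists large gains for both genes. In the deposited values neither gene met either threshold, and only 5 probe sets exceeded 1000 in the survivors. The source of that gap was not tested. Mrpl17, the counterpart of bacterial L17 at the exit of the peptide tunnel, had the same log2 signal of 1.17 on both arrays at its brightest probe set. A further probe set was also equal, at 0.57, and the third, that of the GenBank accession listed by the study, had 0.89 on the control array and 0.75 on that of the survivors, a difference of -0.14. Mtg1 had a single probe set with 0.83 and 1.33, a difference of 0.49. Mtg2 had 1.07 on both arrays, and its 4 probe sets were equal at 2 and higher in the survivors at the others, by up to 0.33. Mtg1 lay above 83.8% of genes by its difference, and Mrpl17 lay among the 18.4% of genes that were equal.

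**Figure D3:**
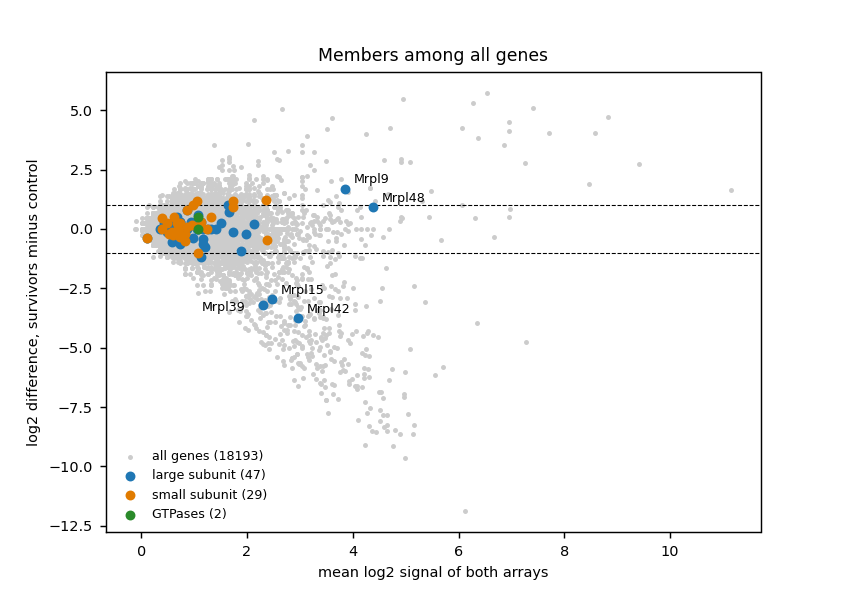
Log2 difference, survivors minus reference control on the deposited scale (vertical axis), against mean log2 signal (horizontal axis, average of the 2 arrays) for all genes (grey), the large subunit (blue), the small subunit (orange) and Mtg1 and Mtg2 (green), with dashed lines at differences of 1 and -1. Most members sit in the dense cloud below a mean of 2, Mrpl42, Mrpl39 and Mrpl15 lie on the arm of genes that are bright in the reference control only, and Mrpl9 and Mrpl48 lie to the right of the cloud above 0.

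Sorted by origin, neither proteins with a bacterial counterpart nor mitochondria-specific ones had a median far from that of all genes. Of 29 measured large subunit proteins with a bacterial counterpart, 8 were higher, 14 lower and 7 equal, with a median of 0.00. Of 18 mitochondria-specific ones, 9 were higher, 5 lower and 4 equal, with a median of 0.09. In the small subunit 15 with a bacterial counterpart had a median of 0.18 and 10 mitochondria-specific ones a median of 0.13. Mrps28, lower by a difference of -0.39, and Mrps36, equal on both arrays, were put in neither class. Mrps18a and Mrps30 carry small subunit names but sit in the large subunit of the assembled ribosome, and both were higher, by 0.29 and 0.25.

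By position in the ribosome, the 4 measured proteins of the stalk and its base, where elongation factors bind, were all lower at their brightest probe sets. Mrpl12, which binds the elongation factors, had 0.85 on the control array and 0.30 on that of the survivors, and Mrpl10 had 0.80 and 0.66, each at its only probe set. Mrpl53, also of the stalk, was read only by a probe set that also names Ccdc142, which had 0.57 on both arrays. With Mrpl54 and Mrpl11, whose other probe sets were equal or of both signs, the median difference was -0.74, beside 0.00 over all genes, of which 38.1% were lower. Of 7 proteins near the exit of the peptide tunnel, 2 were higher, 1 was lower and 4 were equal, including Mrpl17, and differences ran from -0.43 to 0.29. Of 7 proteins of the central protuberance, 2 were higher, 2 lower and 3 equal, with a median of 0.00. Of 8 proteins of the small subunit head, 3 were higher, 4 lower and 1 equal, with a median of -0.09.

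Some members have been tied to cell death apart from translation. Mrpl41, which has been linked to p53 and apoptosis, had 1.26 on both arrays at its brightest probe set and ran down to -0.49 at another. Mrps30, also known as a programmed cell death protein, had 0.57 on the control array and 0.83 on that of the survivors. Dap3, a GTP-binding small subunit protein named for its role in cell death and without the Mrps prefix, had 0.36 and 0.85, a difference of 0.48.

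Probe sets of a gene may read different inserts and need not agree. Their differences lay about as far apart for the members as over all genes. Of the 43 members with several probe sets, 20 (46.5%) had differences of both signs, beside 47.7% of all genes with several. The median span between the lowest and the highest difference was 0.64 for members and 0.68 for all genes, and the widest span of a member was 4.35, for Mrpl42. Of the 11 members past a difference of 1, 10 had other probe sets, and 1 of these 10 had another past it in the same direction. By the array's own classes, 2 of 10 member probe sets ending in _s_at, 3 of 15 in _x_at, 4 of 31 in _a_at and 8 of 105 of the plain kind were past a difference of 1. Over all probe sets with 1 symbol those shares were 10.0%, 19.4%, 10.7% and 6.38%.

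**Figure D4:**
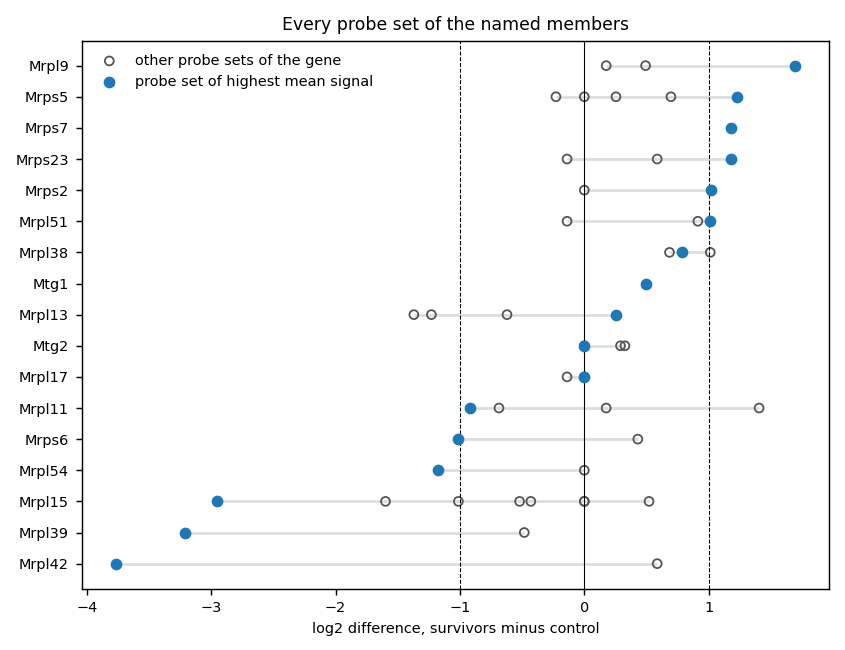
Log2 difference, survivors minus reference control on the deposited scale (horizontal axis), at every probe set of the 14 members with a difference of over 1 at any probe set and of Mrpl17, Mtg1 and Mtg2. Filled points are the probe sets of highest mean signal, open circles the others, and dashed lines mark differences of 1 and -1; for Mrpl42, Mrpl39 and Mrpl9 the outermost point stands alone, whereas 3 probe sets of Mrpl15 lie at or beyond -1.

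The low signals repeat a limited set of values. The 45037 probe sets held 6893 distinct pairs of values and 894 distinct differences (at 4 decimals), and 91.3% of probe sets had exactly the same values on both arrays as some other probe set. Of the 161 member probe sets 144 (89.4%) did, whereas the 5 above a log2 signal of 3 did not. At the brightest probe sets 6 pairs of members could not be told apart: Mrpl46 and Mrps28 both had 0.31 on the control array and -0.08 on that of the survivors, and Mrpl38 and Mrps22 both had 0.47 and 1.26. The same held for Mrpl16 and Mrpl36, Mrpl44 and Mrpl58, Mrpl21 and Mrps18a, and Mrpl40 and Mtg2. Counting the probe set itself, the difference of 0.49 of Mtg1 was held by 1040 probe sets and that of -0.14 at the listed probe set of Mrpl17 by 2316. Counts past the threshold rest largely on such steps: 1.01, the difference of Mrpl51, was held by 287 probe sets, and -1.01, that of Mrps6, by 97. The difference of 1.18 of Mrps7 and Mrps23 was held by 285, that of Mrps2 by 140 and that of Mrpl54 by 111. Those of Mrpl9 and Mrps5 were held by 54 and 18. The difference of 0.92 of the bright Mrpl48 was held by 573. The differences of Mrpl42 and Mrpl15 were held by 2 and 3 probe sets and that of Mrpl39 by 1, again with the probe set itself counted. Over the 67 members within a difference of 1, 88.1% shared their pair of values with another probe set, against 54.5% of the 11 beyond it.

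Across the 78 members the signals of the arrays had a Pearson correlation of 0.51 and a Spearman correlation of 0.53, beside 0.37 and 0.37 over all genes. Each point takes both values from the same probe set, so that probe brightness is shared, and genes are not replicates.

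Other genes of mitochondrial translation were also spread around 0. Of 50 measured among 55 listed, 22 were higher, 19 lower and 9 equal, with a median of 0.00. At the brightest probe sets 0 were higher by over 1 and 4 (8.0%) were lower by as much, beside 4.78% and 5.45% of all genes. The lowest was Fastkd2, a mitochondrial RNA-binding protein needed for the large subunit's RNA, with 8.77 on the control array and 0.52 on that of the survivors at the outermost of 4 probe sets, which ran up to 0.00. Fars2, the mitochondrial phenylalanyl-tRNA synthetase, had 4.02 and 1.88 beside a difference of 0.25 at its other probe set. Qrsl1, a subunit of the enzyme that makes glutaminyl-tRNA in mitochondria, had 2.35 and 1.23, with a difference of -0.19 at its other probe set. Ptcd3, a small subunit protein without the Mrps prefix, had 1.73 and 0.61, with a difference of 0.00 at its other probe set.

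By role, the 10 measured translation factors had 3 higher, 4 lower and 3 equal, with a median of 0.00. Tufm, the elongation factor that brings tRNA to the ribosome, had 0.77 and 1.55 but reached -0.32 at another of its 4 probe sets, and the initiation factor Mtif3 had 1.29 and 0.67. Tsfm, which recharges Tufm, had a difference of 0.52 and, at its other probe set, the larger and opposite one of -0.75. Gfm2, a recycling factor, had -0.52 and the opposite 0.43. The 19 measured synthetases and amidotransferase subunits had 10 higher, 5 lower and 4 equal, with a median of 0.25, among them the leucyl enzyme Lars2 with a difference of 0.70 (down to -0.19 at another probe set) and the methionyl enzyme Mars2 with 0.60. The 17 assembly factors had 7 higher, 8 lower and 2 equal, with a median of 0.00, among them Slirp (0.92), an RNA-binding partner of Lrpprc, the RNA methyltransferase partner Nsun4 (0.87) and Tfb1m (0.78), which methylates the small subunit's RNA. The 4 measured ribosomal proteins without the prefix had 2 higher and 2 lower, among them Gadd45gip1 with 0.52 and Chchd1 with -0.14.

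The 48 cytosolic ribosomal proteins had 21 higher, 21 lower and 6 equal, with a median of 0.00, 4 higher by over 1 and 5 lower by as much. Their differences ran from -2.36 to 2.03, against -3.77 to 1.70 for the mitochondrial members. Shares past a difference of 1 were 8.33% higher and 10.4% lower for the cytosolic proteins, beside 7.69% and 6.41% for the members.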

How the data were processed

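Library inserts recovered from ANSO4E cells were hybridized to 2 Affymetrix arrays, 1 per condition, and conditions were taken from the sample labels. What the authors deposited is 1 log2 signal per probe set and array, made with RMA according to the submitters' processing notes, with no version given in the sources used here. The study also names quantile normalization, R and a program that came with the library. Labels describe genomic DNA as the source of the inserts and the study's methods describe their transcripts. The arrays were not equal in distribution as deposited, and the values were used unchanged. After 64 Affymetrix control probe sets were set aside, genes were named from the array annotation, with symbols updated through the gene ID from GRCm38.p6. Probe sets with several symbols (932) or none (9160) named no gene.

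Differences, counts past a log2 difference of 1, medians and correlations were computed in Python 3.11.15 with pandas 2.3.3 and numpy 2.4.6. Ranks for quantile normalization used scipy 1.17.1, loess used statsmodels 0.14.6 and figures used matplotlib 3.10.9. The steps were tested on simulated data. There was no replicate array and hence no test, and precision is limited by having 2 arrays. Members and lists were chosen with earlier results of these data known. Named were Mrpl17, Mtg1, Mtg2, members past a difference of 1 at any probe set, the 3 brightest of each subunit on each array, and up to 4 of each further list. The other members mentioned were chosen for their background or after their values were seen. Alternatives covered scaling, a floor, probe set choice, symbols and thresholds. No siRNA or probe sequences were used here.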

Additional observations from a re-analysis of the deposited data

Results flagged for a closer look

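The 18 hybridization controls, which lie outside the comparison of genes, had a median log2 difference of 2.77, with a range from 0.08 to 3.86, and all were higher on the survivors' array. A probe set annotated to both Gm6238 and Mrpl30 and so left out of the members had 1.08 on the control array and 1.57 on that of the survivors, a difference of 0.48, whereas the other probe set of these symbols had -0.23.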

How the results depend on the processing

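No paired analysis was possible because each condition had 1 array. The counts of 6 members higher and 5 lower by over 1 stayed within 1.5 times under median centering (4 and 5), quantile normalization (7 and 5), loess (6 and 5), a floor, the array's own symbols and leaving out _x_at and _s_at probe sets. With the hybridization controls as the base they became 0 and 78, and the subunit medians became -2.77 (large) and -2.59 (small), as the median of all genes moved by -2.77. The counts turned with the choice of probe set. They were 1 and 0 at the probe set of lowest mean and 1 and 2 with the median over probe sets. They were 3 and 6 at the probe set brightest in the reference control, and 8 and 2 at that brightest in the survivors. With the latter choice the median of all genes also rose, to 0.18. Shares of all genes past 1 are not given for these alternatives, so their counts do not set the members apart. At the probe set brightest in the reference control the medians were -0.14 (large) and 0.00 (small). Thresholds of 0.5, 2 and 2.5 gave 13, 0 and 0 higher and 10, 3 and 3 lower. Past 2.5, 0.253% of all genes were higher and 1.73% lower. Shares of all genes past 0.5 and 2 are not given, so the counts there do not set the members apart.

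Centering on the hybridization controls reversed Mrpl51 (-1.75), Mrpl9 (-1.07), Mrps2 (-1.75), Mrps23 (-1.59), Mrps5 (-1.54) and Mrps7 (-1.59). The probe set of lowest mean reversed Mrpl42 (0.59) and Mrps6 (0.43). The probe set brightest in the reference control reversed Mrpl51 (-0.14) and Mrps23 (-0.14), and leaving out _x_at and _s_at probe sets reversed Mrps5 (-0.23). Named members within a difference of 1 changed sign too. Mrpl11 went from -0.92 to 1.41 without _x_at and _s_at probe sets and at the probe set brightest in the survivors, and to 0.18 at that of lowest mean. Mrpl13 went from 0.25 to -1.37 at the probe set brightest in the reference control. It was -0.62 at that of lowest mean and -0.93 with the median. Centered on the hybridization controls, Mrpl13 was -2.51, Mtg1 -2.27 and Mrpl38 -1.98. Quantile normalization gave 3.35 for Mrpl9, 2.22 for Mrps5, -2.82 for Mrpl42, -2.60 for Mrpl39 and -2.33 for Mrpl15. The cause of these shifts was not tested.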
